A study of Mus musculus with 24 samples.

Results

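Cadherins and protocadherins are the calcium-dependent adhesion proteins of the cell surface, and the 57 members described here were taken by symbol from a count table of 15736 genes of the mouse otocyst epithelium. A gene was a member if its symbol was Cdh with a number, began with Pcdh, or was Fat1, Fat2, Fat3, Fat4, Dchs1, Celsr1, Celsr2 or Celsr3. They fall into 5 type I and 10 type II classical cadherins, 2 other cadherins, 4 delta-1 and 5 delta-2 protocadherins, 3 other protocadherins, 20 clustered protocadherins, 5 Fat and Dachsous genes and 3 Celsr genes. Another 42 protein-coding genes of the annotation meet the rule but are not among the rows analysed here, most of them Pcdha and Pcdhg genes.

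Stranded poly(A) RNA sequencing was used to ask which genes of the otocyst respond when ligands of the receptor FGFR2b are captured. Control embryos (con) were Rosa26rtTA/+, which carry only the doxycycline-dependent activator rtTA. Experimental embryos (R2b) were Rosa26rtTA/+;Tg(tetO-s(dn)Fgfr2b)/+ and in addition had a transgene that makes a secreted dominant-negative form of FGFR2b under tetO. Rosa26 is a broadly active locus, so the activator was not restricted to the ear, and a secreted receptor can act outside the cells that make it. Every dam was given doxycycline, so con embryos were exposed too: 1 injection of 1.5 mg/kg, followed by chow with 200 mg/kg. The exposures are named by their starting day and length: E9.75+12h lasted 12 hours, while E9.25+24h and the later E10.25+24h lasted 24 hours. Each library is a pool of otocysts of 1 genotype from 1 litter, and the 22 libraries come from 3 litters of the 12-hour exposure and 4 of either 24-hour exposure. Genotype was compared within an exposure, because the library numbers of an exposure share a prefix in the titles that the others lack.

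Classical cadherins join neighbouring epithelial cells: their outer repeats bind the same cadherin on the next cell, and their tails hold catenins that reach the actin cytoskeleton. Protocadherins share the outer repeats but not the catenin-binding tail and act more in cell recognition and sorting. Fat, Dachsous and Celsr proteins are very large members of planar cell polarity systems, which later orient hair cells, and Pcdh15 and Cdh23 together form the tip links of hair bundles.

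The libraries held 18676615 to 28241583 counts. Values below are CPM, read counts scaled to a common library total with TMM factors within an exposure. All 14 otic epithelium markers were in the table and summed to 2505 to 8278 CPM per library, while 4 of 13 hindbrain neural tube markers were in it and summed to 1.115 to 12.39 CPM. The con pool of litter 4 at E9.25+24h stood apart, with endothelium markers summing to 276.8 CPM against 16.51 to 49.65 in the other con pools, and mesenchyme markers to 1273 CPM against 93 to 366.4. The R2b pool of that litter did too, with endothelium markers at 126.7 CPM against 16.38 to 41.81 in the other R2b pools and mesenchyme markers at 1183 against 104.3 to 447.8. At E10.25+24h blood markers summed to 5224 CPM in the library labelled R2b of litter 3, against 274.3 to 726.1 in the other 3. Reads of the transgene's Ighg1 part checked the labels: in the 12-hour and the earlier 24-hour exposure con pools had 1 to 36 counts and R2b pools 19414 to 76096. At E10.25+24h litter 1 went against its labels, with 15754 Ighg1 counts in the library labelled con and 1504 in the library labelled R2b, and the library labelled con of litter 3 had 5106. Results at E10.25+24h are therefore given with and without these litters. Litters are separate pregnancies, so the spread is between litters. In pooled tissue, fewer cells of a type and less RNA per cell cannot be told apart.

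In control otocysts the classical cadherins led by level. Per kb of exon, Cdh3 (P-cadherin, of embryonic surface epithelia and placenta) stood at 98.0 ± 10.1 CPM per kb at E9.75+12h (SD, n = 3), the highest of the 57 there and at the other exposures. Cdh1 (E-cadherin, of epithelial junctions) was at 48.5 ± 2.2 and Cdh2 (N-cadherin, of neural and mesodermal tissue) at 41.4 ± 1.32 CPM per kb, so both were abundant in the same pools. Fat1 followed at 24.7 ± 2.96 CPM per kb. Cdh11, at 18.4 ± 3.0, and Pcdh18, at 16.6 ± 3.18 CPM per kb, came next, and their pools overlapped. The row named Pcdhgc4 ranked second at 63.7 ± 8.72 CPM per kb, but it shares up to 2119 exon bases with other Pcdhg genes and may hold reads of the whole cluster. At the low end Cdh23 was at 0.00926 ± 0.00808 CPM per kb. Of the 57, 21 had a con mean of at least 10 CPM at E9.75+12h and 17 were under 1 CPM.

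**Figure D1:**
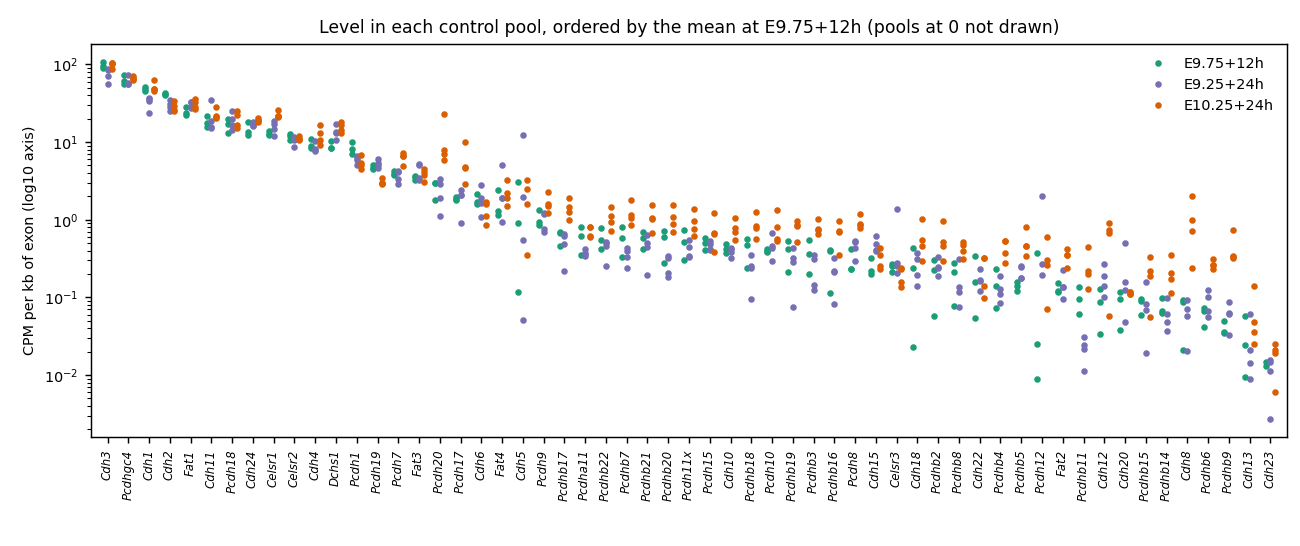
Level of each member in every con pool, as CPM per kb of exon on a log10 axis, with 1 point per pool and a color per exposure, ordered by the mean at E9.75+12h. The order runs from Cdh3 near 98.0 CPM per kb to Cdh23 under 0.1, and the points of most clustered Pcdhb genes lie below 1 at the earlier exposures.

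At both exposures that ended at E10.25, members called by the test (adjusted p under 0.05, edgeR quasi-likelihood test with Benjamini-Hochberg adjustment over all genes tested) were higher in R2b and none was lower. At E9.75+12h 52 members passed the filter on low counts and 15 rose. A low gene could pass this filter through the pools of 1 genotype alone. Of all 14882 genes tested there 20% were called, 10.20% higher and 9.78% lower. The median log2 fold change (R2b over con) was 0.57 over the 52 members and 0.01 over all genes. Among the 52 tested, R2b and con pools did not overlap in 25 members with R2b higher and in 1 with R2b lower, against 19.8% and 19% of all genes tested. Of the untested members, Pcdhb6 and Pcdhb9 also lay apart with R2b higher, at counts under the filter. An unadjusted p under 0.05 was reached by 22 members there (35% of all genes) and by 21 at E9.25+24h (32.2%). At E9.25+24h 51 members were tested and 8 rose, where 15.6% of all genes were called, 9.09% higher and 6.5% lower. There the median log2 fold change was 0.44 over members and -0.01 over all genes, and 10 of the 51 did not overlap with R2b higher, against 12.2% of all genes tested. None of the 51 lay apart with R2b lower, where 1529 of the 14979 genes tested did. Cdh23 and Pcdhb11, untested there, lay apart with R2b higher. Of 49 members tested at both exposures, Cdh1, Cdh2, Pcdh1, Pcdh15 and Pcdh18 rose at both, and 4.97% of all genes did so. At E9.75+12h the calls of Cdh2 and Pcdh18 stood in 6 and 7 of 18 alternative fits. The Cdh1 call at E9.25+24h stood in 17 of 22, but in 1 of the 4 unpaired fits that left out a litter.

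Leaving out litters moved these counts. The share of all genes called moved with them and is given beside each. At E9.75+12h 4 members were called without litter 1 (Pcdh15, Pcdh17, Cdh4 and Pcdh20), where 2.92% of all genes were called. There were 9 without its con pool (10.8% of all genes), 9 without its R2b pool (8.37%), 9 with the con pool of litter 2 removed (1545 of 15134 genes) and 7 with the R2b pool of litter 3 removed (12.3%). Without litter 2 there were 17 (27.1%), and 19 without its R2b pool alone (30.5%). For E9.25+24h none was called without litter 1 (2.15% of all genes) and 2 without litter 2 (Pcdh1 and Pcdh15; 3.06%). Leaving out the R2b pool of litter 1 or of litter 2 left 4 each (5.4% and 6.18%). With the litter as a block, 10 members were called at E9.75+12h (11.9% of all genes, 5.79% higher and 6.13% lower). The block gave 30 at E9.25+24h, 26 higher and 4 lower, where it called 40.6% of all genes, 20.5% higher and 20.1% lower.

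**Figure D2:**
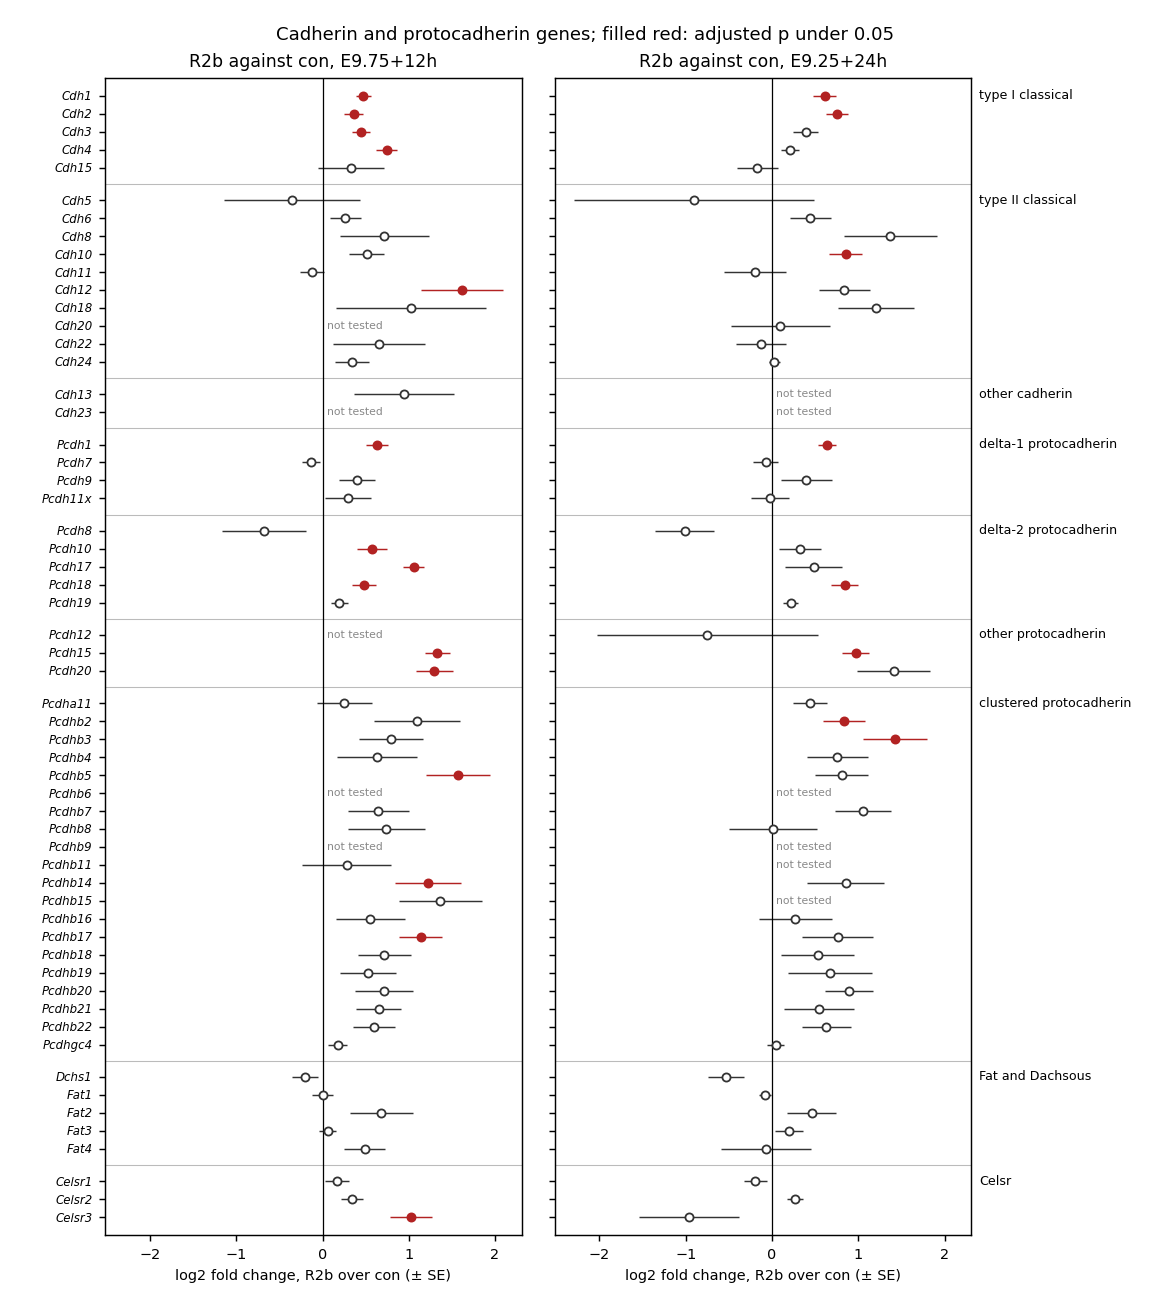
Log2 fold change (R2b over con) with its SE for the members tested, by subfamily, 52 at E9.75+12h on the left and 51 at E9.25+24h on the right, with filled red points for an adjusted p under 0.05 and the remaining members marked as not tested. All 15 filled points on the left and all 8 on the right lie above 0, and open points lie on both sides of it.

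Among type I classical cadherins, 4 of 5 rose at E9.75+12h, against 1518 of all 14882 genes tested. Cdh1 stood at 211, 222 and 231 CPM in con litters 1 to 3 and at 303, 314 and 304 CPM in R2b, a log2 fold change of 0.47 ± 0.09 (SE; adjusted p = 0.00432). At E9.25+24h it stood at 168, 163, 156 and 108 CPM in con litters 1 to 4 and at 238, 239, 234 and 196 in R2b, a log2 fold change of 0.61 ± 0.13 (SE; adjusted p = 0.0188). No R2b pool overlapped a con pool at either exposure, and litter 4 gave the lowest value of each genotype. Cdh2 stood at 336, 322 and 343 CPM in con and 363, 451 and 475 in R2b at E9.75+12h, with the rise smallest in litter 1 (log2 0.36 ± 0.11, adjusted p = 0.0386). The blocked fit lost that call (adjusted p = 0.0771), and so did each of the 3 unpaired fits without 1 litter. At E9.25+24h Cdh2 was at 229, 251, 283 and 205 CPM in con against 416, 439, 454 and 322 in R2b, a log2 fold change of 0.75 ± 0.13 (adjusted p = 0.00729), with every R2b pool above every con pool. E-cadherin and N-cadherin rose in the same comparisons. The ratio of Cdh1 to Cdh2 per kb was 1.11 to 1.22 in con and 1.13 to 1.47 in R2b at E9.75+12h, with overlap. For E9.25+24h the ratio was 0.931 to 1.30 in con and 0.911 to 1.07 in R2b, again overlapping.

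Cdh3 stood at 392, 419 and 478 CPM in con and 588, 546 and 626 in R2b at E9.75+12h, groups that did not overlap (log2 0.45 ± 0.10, adjusted p = 0.0127). After 24 hours from E9.25 its pools were at 389, 374, 314 and 248 against 454, 480, 435 and 364 CPM. R2b was higher in 4 of 4 litters there but the groups overlapped, with an adjusted p of 0.0923 unpaired and 0.000160 with the litter block. Cdh4 (R-cadherin, known from retina, brain and kidney) was at 78.5, 64.4 and 60.7 CPM in con and 119, 102 and 119 in R2b at E9.75+12h, a log2 fold change of 0.74 ± 0.12 (adjusted p = 0.00208). Its groups lay well apart, and it kept its call in all 18 alternatives run. At E9.25+24h Cdh4 gave 0.21 ± 0.10 (adjusted p = 0.21 unpaired, 0.00734 with the block). Cdh15 (M-cadherin, of muscle) was between 0.357 and 2.01 CPM and was not called at any exposure.

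**Figure D3:**
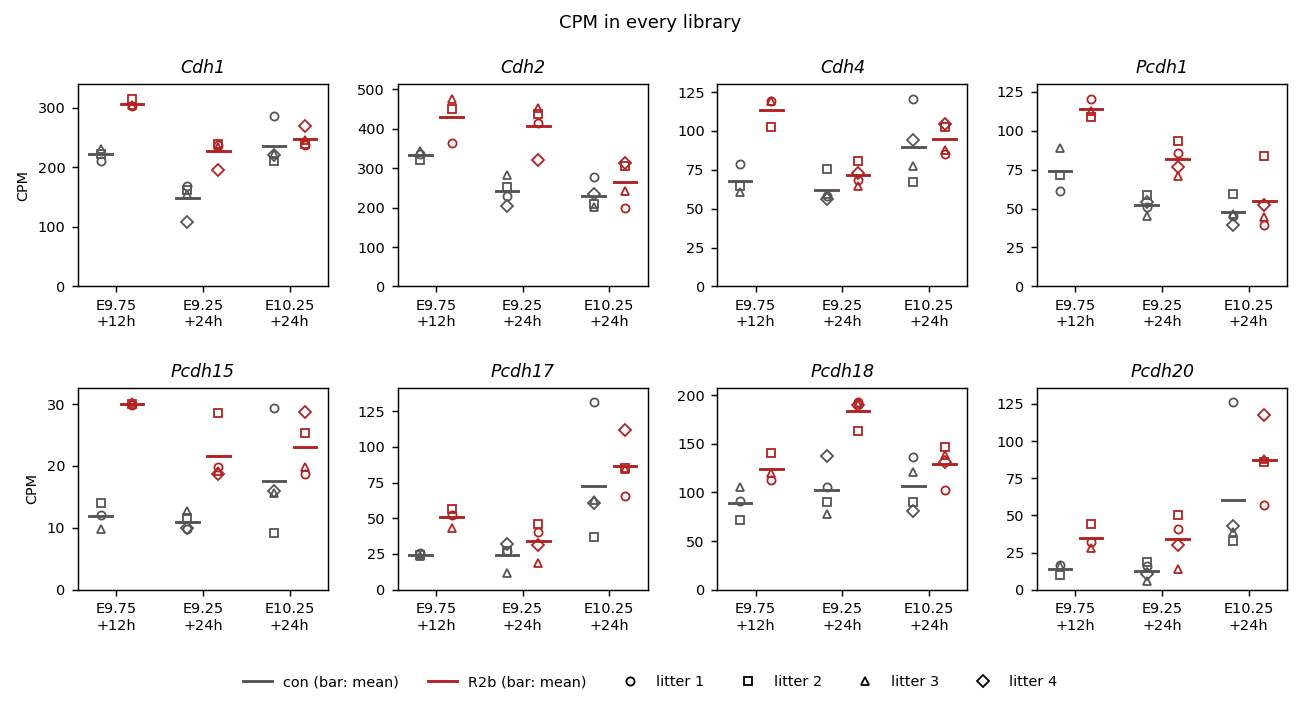
CPM of 8 members in every library, con in grey and R2b in red, with a symbol per litter and a bar at the group mean, on axes that start at 0. At E9.75+12h the groups of all 8 lie apart, while at E10.25+24h the library labelled con of litter 1 (circle) tops its group in all but Pcdh1 and reaches 126 CPM for Pcdh20.

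Type II classical cadherins have tails that bind catenins too, but their outer binding surface differs. They gave 1 call at each early exposure: 1 of 9 tested rose at E9.75+12h and 1 of 10 at E9.25+24h. Of all genes tested, 1518 of 14882 and 1362 of 14979 were called higher there. The type II share was therefore near that of all genes. Cdh12 (a brain cadherin) rose at E9.75+12h from 0.555, 0.819 and 0.211 CPM in con to 1.83, 1.06 and 2.01 in R2b, a log2 fold change of 1.61 ± 0.48 (adjusted p = 0.0356; 0.0905 with the block). These are low levels, from 0.211 to 2.01 CPM. Cdh10, also known mainly from brain, rose at E9.25+24h from 4.17, 3.82, 4.3 and 3.23 CPM to 7.59, 9.16, 5.34 and 5.97, with no overlap (log2 0.85 ± 0.19, adjusted p = 0.0214). At E9.75+12h it went 4.94, 4.21 and 3.79 against 5.44, 6.42 and 6.6 CPM, again without overlap, at an adjusted p of 0.0965. Cdh6, of kidney and neural crest, gave 0.26 ± 0.18 and 0.45 ± 0.24 (adjusted p = 0.318 and 0.233), and the block called it at E9.25+24h (0.49 ± 0.14, adjusted p = 0.0183). Cdh24 differed by 0.03 ± 0.06 at E9.25+24h (adjusted p = 0.797).

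Cdh5 and Cdh11 were high in libraries where markers of endothelium and mesenchyme were high, and the part of those cells in their values was not tested. Cdh5 (VE-cadherin, of endothelial junctions) ranged from 0.0445 to 52.6 CPM over the libraries of E9.25+24h, and its highest value was in the con pool of litter 4, which also had the highest endothelium sum (276.8 CPM). Its log2 fold change was -0.35 ± 0.79 at E9.75+12h, and the E9.25+24h pools gave -0.90 ± 1.39 (adjusted p = 0.783 and 0.7), so the error exceeded the difference. The Cdh5 log2 fold change at E9.75+12h was 1.44 with the litter block and without litter 3, where it was called higher (adjusted p = 0.0187). That fit held litters 1 and 2 alone. Cdh11 (OB-cadherin, of mesenchyme) was at 164, 140, 137 and 306 CPM in con and 156, 123, 95.8 and 276 in R2b at E9.25+24h. Both pools of litter 4 were high, and they had the highest mesenchyme sums, 1273 and 1183 CPM. R2b was lower in 4 of 4 litters, by 0.20 ± 0.36 unpaired (adjusted p = 0.739) and by 0.23 ± 0.06 with the block, where it was called lower (adjusted p = 0.0131). Cdh8, Cdh18, Cdh20 and Cdh22 were called at neither early exposure without the block.

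**Figure D4:**
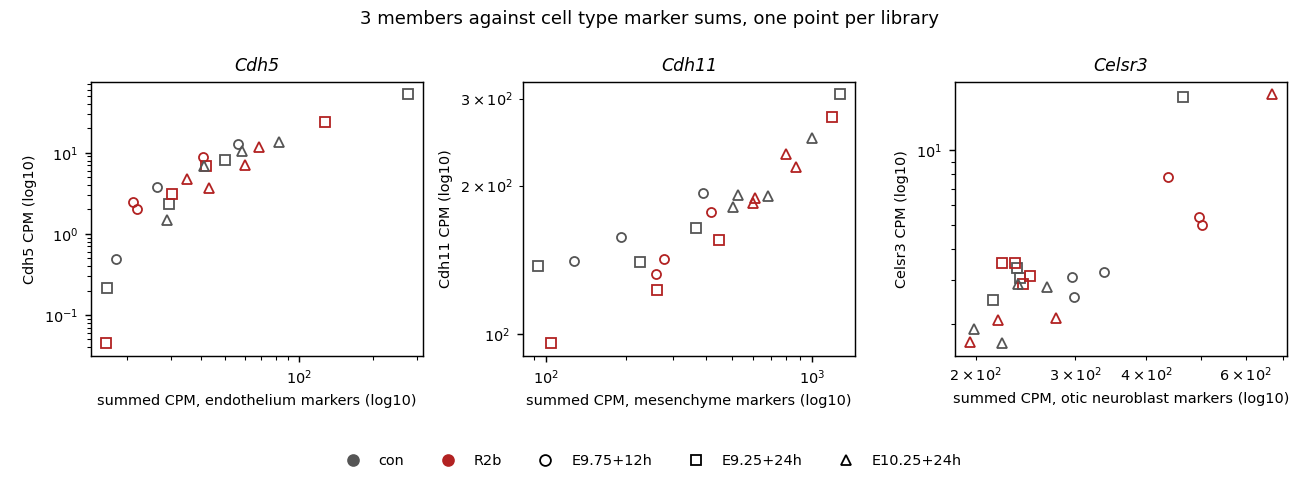
Cdh5, Cdh11 and Celsr3 (CPM, y axis) against the summed CPM of endothelium, mesenchyme and otic neuroblast markers (x axis), both log10, with 1 point per library and a symbol per exposure. The con pool of litter 4 at E9.25+24h lies at the top right for Cdh5 (52.6 CPM) and Cdh11 (306 CPM), and the highest Celsr3 values, 16.8 and 16.4 CPM, lie at neuroblast sums of 668 and 465.2 CPM.

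The 2 remaining cadherins were hardly detected. Cdh23, the upper part of the hair bundle tip link, had 0 to 15 counts per library and was not tested at any exposure. The con pools of E9.75+12h had 5, 4 and 0 counts and the R2b pools 13, 6 and 11. At E9.25+24h con pools had 4, 5, 5 and 1 counts and R2b pools 6, 15, 9 and 8, so that the groups did not overlap, at a depth of under 1 CPM. Cdh13 (T-cadherin, which is anchored by a lipid and has no tail) was at most 1.56 CPM in any library.

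Pcdh15, the partner of Cdh23 and lower part of the tip link, rose at E9.75+12h from 12.1, 14 and 9.8 CPM in con to 29.9, 30.1 and 30.3 in R2b, a log2 fold change of 1.33 ± 0.15 (SE; adjusted p = 0.000521). In the longer exposure from E9.25 Pcdh15 rose from 9.81, 11.5, 12.7 and 10 CPM to 19.8, 28.6, 19.1 and 18.8, a log2 fold change of 0.97 ± 0.16 (adjusted p = 0.00655). R2b pools were above all con pools at both, and they were nearly equal to each other at E9.75+12h. The call stood in 18 of 18 alternatives at E9.75+12h and in 21 of 22 at E9.25+24h, where it was lost without litter 1 (adjusted p = 0.0627). Pcdh20, a protocadherin outside the delta groups, rose at E9.75+12h from 16.3, 9.94 and 16.2 CPM to 32, 44.4 and 27.9 (log2 1.30 ± 0.21, adjusted p = 0.00261). That call stood in 17 of 18 alternatives and was lost with all libraries in 1 fit (adjusted p = 0.0573). Pcdh20 went from 15.9, 18.5, 6.05 and 10.5 CPM to 40.7, 50.3, 14.2 and 30.3 at E9.25+24h. Each R2b pool there was more than double its litter partner, yet litters differed so much that the groups overlapped: the adjusted p was 0.0526 unpaired and 5.18e-07 with the block (log2 1.40 ± 0.07). Pcdh12, an endothelial protocadherin, was at 12.3 CPM in the con pool of litter 4 at E9.25+24h and between 0 and 1.63 in the other con pools, and was not called.

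The stretch upstream of the start site is shown for Pcdh15, Pcdh17 and Pcdh20, which kept their calls at E9.75+12h when each litter and each pool was left out (Cdh4, which did too, is named only). The sequences are the 250 bases before the RefSeq transcript start (build GRCm38.p6), written 5′ to 3′ on the gene's strand, with matches to the searched motifs in capitals. They are chr10:73821617-73821866 (plus strand) for Pcdh15, chr14:84443313-84443562 (plus strand) for Pcdh17 and chr14:88471397-88471646 (minus strand) for Pcdh20. The Pcdh15 window lies inside the annotated gene, whose span starts at 73099342, and no annotated exon overlaps any of the 3. A stretch just after the start was found in a GENCODE transcript of the gene for Pcdh15 and Pcdh17. For Pcdh20 it was not found, though its window adjoins the annotated gene, whose span ends at 88471396.
Pcdh15: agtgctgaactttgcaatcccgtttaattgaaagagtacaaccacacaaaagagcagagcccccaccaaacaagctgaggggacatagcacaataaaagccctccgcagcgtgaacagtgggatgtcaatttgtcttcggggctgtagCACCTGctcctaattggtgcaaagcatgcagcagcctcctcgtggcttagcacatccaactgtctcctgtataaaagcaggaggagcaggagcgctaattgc
Pcdh17: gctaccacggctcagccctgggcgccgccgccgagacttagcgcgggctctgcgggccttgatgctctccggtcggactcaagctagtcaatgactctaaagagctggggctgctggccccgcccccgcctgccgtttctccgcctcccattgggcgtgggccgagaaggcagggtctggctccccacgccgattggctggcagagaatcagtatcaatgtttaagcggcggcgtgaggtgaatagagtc
Pcdh20: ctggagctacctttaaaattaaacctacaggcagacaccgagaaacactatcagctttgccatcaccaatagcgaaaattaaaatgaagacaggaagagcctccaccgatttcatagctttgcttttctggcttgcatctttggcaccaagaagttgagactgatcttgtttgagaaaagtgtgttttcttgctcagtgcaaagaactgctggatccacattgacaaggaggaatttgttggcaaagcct
The motifs searched on both strands were CAGGTG, the E-box bound by Snail and Zeb repressors of Cdh1, and CCGGAAGT, bound by ETS factors, which do not overlap each other. The capitals in Pcdh15 are CACCTG, the E-box on the other strand. In windows of 300 bases (250 before to 50 after the start) the E-box letters occurred in 4 of 26 windows of the 25 members with a RefSeq entry (15.4%) and in 20.2% of all 32851 windows. The ETS letters occurred in 0 of the 26 and in 3.89% of all windows.

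Of the delta-1 protocadherins, Pcdh1, of epithelia and vessels, rose at both early exposures. It was at 61.2, 71.5 and 88.7 CPM in con and 120, 109 and 113 in R2b at E9.75+12h (log2 0.63 ± 0.13, adjusted p = 0.0072). At E9.25+24h con pools were at 51.3, 59, 45.2 and 54.5 CPM and R2b pools at 85.7, 93.6, 71.2 and 76.7 (log2 0.64 ± 0.10, adjusted p = 0.00655). The groups were apart at both, and the size of the rise was about equal. Pcdh7, Pcdh9 and Pcdh11x were not called. Pcdh7 was the member whose R2b pools, at 38.4, 38.2 and 38.3 CPM, lay below all con pools, at 45.2, 40.9 and 39.6, at E9.75+12h (log2 -0.13 ± 0.10, adjusted p = 0.406).

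Of the delta-2 protocadherins, which are known from brain and somite boundaries, Pcdh10, Pcdh17 and Pcdh18 rose at E9.75+12h. Pcdh17 stood at 25.5, 24.1 and 23.2 CPM in con and 51.9, 56.2 and 43.5 in R2b, a log2 fold change of 1.06 ± 0.12 (adjusted p = 0.000571), with con pools close together and every R2b pool far above them. The 4 litters of E9.25+24h had 26.8, 27.4, 11.7 and 31.7 CPM of Pcdh17 in con against 40.2, 46.2, 18.7 and 31.1 in R2b. The gain there was in litters 1 to 3 and the low values of both genotypes were in litter 3, with an adjusted p of 0.361 unpaired and 0.00675 with the block (log2 0.49 ± 0.11). Pcdh18 rose at both exposures, from 90.9, 71.3 and 105 to 113, 141 and 120 CPM at E9.75+12h (log2 0.48 ± 0.14, adjusted p = 0.0335; 0.0762 with the block). With 24 hours from E9.25 Pcdh18 rose from 106, 90.2, 77.5 and 137 to 192, 163, 191 and 190 CPM, a log2 fold change of 0.84 ± 0.15 (adjusted p = 0.0108) with no overlap.

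Pcdh10 was at 6.76, 6.22 and 6.17 CPM in con and 11, 8.96 and 8.51 in R2b at E9.75+12h (log2 0.57 ± 0.18, adjusted p = 0.0408; 0.0935 with the block). At E9.25+24h its groups overlapped (log2 0.33 ± 0.24, adjusted p = 0.39). Pcdh8 (paraxial protocadherin) differed in the other direction at E9.25+24h, with con pools at 2.35, 2.43, 1.96 and 1.34 CPM and R2b pools at 0.801, 0.682, 1.74 and 0.758. R2b was lower in 4 of 4 litters, with an adjusted p of 0.0761 unpaired and 0.0149 with the block (log2 -1.04 ± 0.28). Pcdh19 differed little, by 0.20 ± 0.10 and 0.22 ± 0.09, and the block called the second of these (adjusted p = 0.00189). Pcdh7, Pcdh8, Pcdh10 and Pcdh19 overlap an annotated gene on the opposite strand, and whether counting used strand is not given in the sources used here.

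Clustered protocadherins are neighbouring genes that neurons use in combination for self-recognition, and 18 of the 20 members here are Pcdhb genes. All 18 tested at E9.75+12h and, for E9.25+24h, all 16 tested had a fold change above 0, with medians of 0.68 and 0.71 on the log2 scale, but 3 and 2 of them rose. Of all genes 51.4% were above 0 in the first comparison and 48.3% in the second. Those called higher were 1518 of 14882 genes in the first and 1362 of 14979 in the second. The filter on low counts can pass a gene through the pools of 1 genotype alone, so a low gene may be tested because R2b is high. Pcdhb15 at E9.75+12h, at 0.2265 CPM in con and 0.593 in R2b, was such a gene. For low genes the sign is thus partly set by the filter, and nothing is concluded from the counts above 0. Pcdhb genes are near-identical in parts, so reads may be split among them. Their sum over the 18 genes was 29.3, 15.67 and 30.09 CPM in con and 45.74, 41.06 and 42.84 in R2b at E9.75+12h. The sum was 20.78, 23.74, 9.82 and 19.54 CPM in con against 36.06, 43.81, 20.47 and 23.39 in R2b in the litters of E9.25+24h. The sums did not overlap at E9.75+12h. They did in the other exposure, though each R2b pool exceeded the con pool of its litter, in litter 4 by the least.

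At E9.75+12h Pcdhb17 rose from 3.13, 2.13 and 3.21 CPM to 7.69, 5.95 and 5.05 (log2 1.14 ± 0.25, adjusted p = 0.00983). Pcdhb5 rose from 0.555, 0.491 and 0.422 CPM to 1.36, 1.25 and 1.8 (log2 1.57 ± 0.37, adjusted p = 0.0143). Pcdhb14 rose from 0.857, 0.546 and 0.58 CPM to 1.95, 1.14 and 1.6 (log2 1.23 ± 0.38, adjusted p = 0.0428; 0.0759 with the block). In each of these the R2b pools lay above the con pools, at levels of a few CPM or less. At E9.25+24h Pcdhb3 rose from 1.2, 1.34, 0.478 and 0.553 CPM to 2.4, 3.46, 1.69 and 2.08 (log2 1.42 ± 0.37, adjusted p = 0.0351). Pcdhb2 rose from 0.67, 0.944, 0.531 and 0.691 CPM to 1.55, 1.27, 1.2 and 1.04 (log2 0.83 ± 0.24, adjusted p = 0.049). Pcdhb2 was the called member nearest to the threshold, and its call stood in 5 of 21 alternatives: DESeq2, no filter on low counts and 1 fit of all libraries lost it, as did 13 of the fits without a litter or pool. Several calls at E9.75+12h were lost about as often. Those of Pcdhb14, Pcdh10, Cdh2, Pcdh18 and Cdh12 stood in 4, 5, 6, 7 and 8 of 18 alternatives. The other Pcdhb genes were not called at either exposure without the block, and Pcdhb6 and Pcdhb9 were below the filter at both. The Pcdhgc4 row, far above the others, was at 343, 316 and 411 CPM in con and 384, 391 and 432 in R2b at E9.75+12h (log2 0.17 ± 0.11, adjusted p = 0.288). Over the E9.25+24h pools Pcdhgc4 differed by 0.04 ± 0.10 (adjusted p = 0.816). The Pcdha11 row shares 2860 exon bases with the other Pcdha genes and was not called either.

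The Fat and Dachsous genes, which carry a polarity and growth signal between neighbours, gave no call in the unpaired fits. Fat1 stood at 352, 367 and 439 CPM in con and 421, 323 and 415 in R2b at E9.75+12h, a log2 fold change of 0.00 ± 0.12 (adjusted p = 0.997), and at -0.08 ± 0.07 at E9.25+24h. Fat4 was at 32.6, 33.1, 15.9 and 87.5 CPM in con and 43.3, 31.7, 18.6 and 68.3 in R2b at E9.25+24h, highest in both pools of litter 4 and lowest in both of litter 3 (log2 -0.07 ± 0.52). Dchs1, the ligand of Fat4, stood at 144, 147, 119 and 187 CPM in con and 104, 89.9, 73.1 and 146 in R2b at E9.25+24h. R2b was lower in 4 of 4 litters with 1 R2b pool inside the con range, and the log2 fold change was -0.53 ± 0.21 (adjusted p = 0.11 unpaired; 6.13e-05 with the block, log2 -0.56 ± 0.06). At E9.75+12h Dchs1 gave -0.20 ± 0.15 (adjusted p = 0.368). Fat2 and Fat3 were not called without the block, which called Fat3 higher at E9.25+24h (0.22 ± 0.07, adjusted p = 0.0341). Dchs1, Fat1 and Fat4 overlap annotated genes on the opposite strand.

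Celsr1, Celsr2 and Celsr3 are the core planar polarity cadherins. Celsr3, which is mostly neuronal, rose at E9.75+12h from 3.08, 2.57 and 3.21 CPM to 5.39, 4.97 and 7.78 (log2 1.03 ± 0.24, adjusted p = 0.0133). In the same libraries otic neuroblast markers summed to 296.2, 298.4 and 337.5 CPM in con and 496.5, 503.5 and 436.7 in R2b, and 6 of 11 of them were called higher. Their part in the result was not tested. At E9.25+24h Celsr3 was at 3.06, 2.48, 3.34 and 16.4 CPM in con and 3.11, 2.88, 3.52 and 3.5 in R2b, and the con pool of litter 4 with 16.4 CPM had a neuroblast sum of 465.2 CPM against 214.8 to 239.9 in the other con pools. Celsr1 gave 0.17 ± 0.14 at E9.75+12h, and -0.19 ± 0.13 for E9.25+24h (adjusted p = 0.416 and 0.357), and the block called the second lower (-0.18 ± 0.05, adjusted p = 0.0148). Celsr2 was at 128, 134, 124 and 100 CPM in con and 152, 156, 148 and 129 in R2b at E9.25+24h, higher in 4 of 4 litters (log2 0.26 ± 0.09, adjusted p = 0.089; 0.000248 with the block). At E9.75+12h it gave 0.34 ± 0.13 (adjusted p = 0.088).

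At E10.25+24h 56 members were tested and none was called by edgeR or DESeq2, nor did any reach an unadjusted p of 0.05, and of all 15203 genes 0% were called and 1.15% reached that p. No member's groups lay apart, against 0.526% of all genes with R2b higher and 0.388% with R2b lower. The median log2 fold change of the members was 0.09, and 38 of 56 were above 0, against 50.6% of all genes. Pcdh20 stood at 126, 32.7, 38.7 and 43.1 CPM in con litters 1 to 4 and 56.9, 86.1, 87.9 and 117 in R2b: in litter 1 the library labelled con was high, and in the other 3 litters the R2b library was. Pcdh17 showed the same order, at 131, 37.1, 62.5 and 60.6 against 65.8, 85.2, 84.6 and 112 CPM. Pcdh15 did as well, at 29.4, 9.2, 15.6 and 16 against 18.6, 25.3, 19.8 and 28.7 CPM. Over the 18 members called at an earlier exposure, the R2b library was higher for 0 of 18 in litter 1 and for 18, 14 and 17 of 18 in litters 2 to 4. The median difference within litter 1 was -0.56 (log2), against 0.58, 0.17 and 0.47 in the others. Litter 3, with the smallest of those medians, is the one whose library labelled con also held transgene reads. Blood markers summed to 5224 CPM in the R2b library of that litter, against 274.3 to 726.1 in the other R2b libraries. The part of either in the values of litter 3 was not tested.

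**Figure D5:**
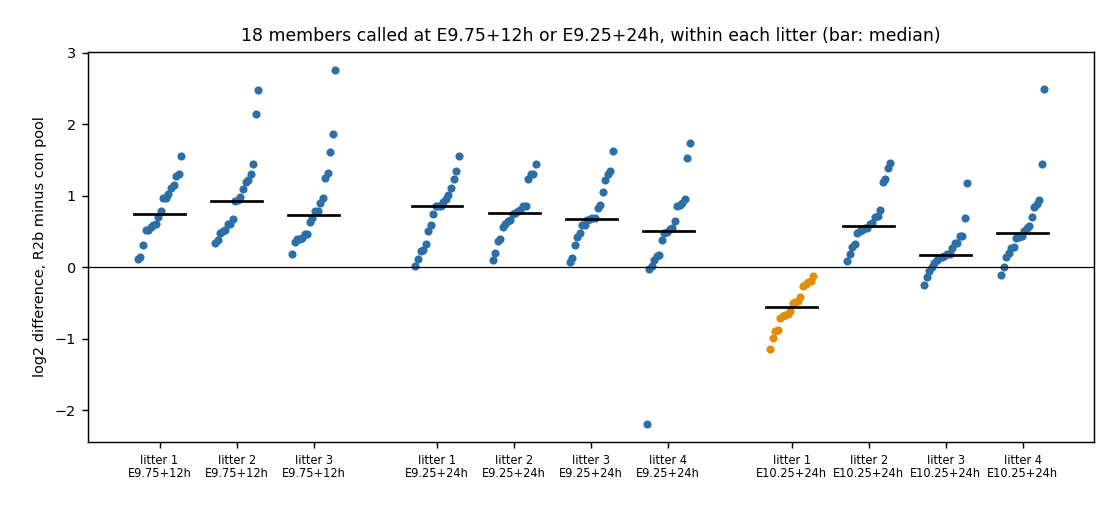
Log2 difference between the R2b and the con pool of each litter for the 18 members called at E9.75+12h or E9.25+24h, with a bar at the median and litter 1 of E10.25+24h in orange. All 18 points of that litter lie below 0, while all 18 lie above 0 in each litter of E9.75+12h and 16 to 18 do in those of E9.25+24h; the members were chosen by their calls at these exposures.

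Without litter 1 no member was called in the unpaired fit, 14 reached an unadjusted p of 0.05, all higher, and 16% of all genes did. With the litter block and without litter 1, 9 members were called (4.04% of all genes, 2.79% higher): Pcdh20, Cdh2, Pcdh17, Pcdh10, Pcdh11x, Cdh10, Cdh8 and Pcdh18 were higher and Dchs1 lower. Pcdh20 gave a log2 fold change of 1.35 ± 0.07 (adjusted p = 0.0045) and Dchs1 -0.23 ± 0.04 (adjusted p = 0.0416). Leaving out litters 1 and 3 gave 0 calls unpaired (0.0329% of all genes), 11 members at an unadjusted p under 0.05 (11.1% of all genes) and 9 with the block (5.77%), all higher. Of those, 6 were the same genes as without litter 1 alone: Cdh2, Cdh8, Pcdh10, Pcdh17, Pcdh18 and Pcdh20, and Pcdh15 (1.14 ± 0.16, adjusted p = 0.0247), Pcdh1 and Fat4 joined them. That fit held litters 2 and 4 alone, so its SEs and adjusted p-values rest largely on the spread shared across genes. Cdh1 stood at 0.21 ± 0.05 (adjusted p = 0.07) and Cdh3 at 0.01 ± 0.06 (adjusted p = 0.904) with the block and without litter 1.

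The test of the difference in effect between exposures called no gene at all in edgeR, 0 of 15688 (0%) in either contrast, so it says nothing particular about the members. Comparing the effect at E9.25+24h with that at E9.75+12h, the lowest adjusted p of the 57 members was 0.334, and 2 of 57 had an unadjusted p under 0.05 (12.2% of all genes). Those were Pcdhb11 (1.87 ± 0.75) and Cdh4 (-0.52 ± 0.21, the effect being smaller at E9.25+24h). DESeq2 gave an adjusted p for 14 of the members and 5363 genes in that contrast and called 0 of the 14 and 1.72% of the genes. For the effect at E10.25+24h minus that at E9.25+24h, the lowest adjusted p was 0.266 (Cdh1, -0.54 ± 0.15), and 8 of 57 had an unadjusted p under 0.05 (8.57% of all genes). There DESeq2 adjusted 49 members and called none of them, and it called 0.511% of 14485 genes. These values of the second contrast include litters 1 and 3 of E10.25+24h, whose libraries labelled con held transgene reads. Without both litters edgeR called 0 of 57 members and 0 of 15707 genes. An unadjusted p under 0.05 was then reached by 476 genes, against 1344 of 15688 with them. The Cdh1 effect at E10.25+24h was 0.08 ± 0.10 with all litters and 0.25 ± 0.09 without litters 1 and 3. In the first contrast, leaving out litter 2 of E9.75+12h gave 1 member, Cdh24 (-0.68 ± 0.11, adjusted p = 0.00504), where 6.76% of all genes were called. With the block Cdh24 was joined by Celsr1 (-0.54 ± 0.11, adjusted p = 0.0122; 12.1% of all genes), and leaving out the R2b pool of that litter also gave Cdh24 (adjusted p = 0.0429; 7.3% of all genes).

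Genes that work with cadherins were described for comparison. Of 17 classical cadherin partners tested, 4 rose and 0 fell at E9.75+12h, while 2 rose and 0 fell at E9.25+24h. Among them Ctnnd2 (delta-catenin) rose by 0.97 ± 0.15 and 1.18 ± 0.12 (log2) and Jup (plakoglobin) by 0.63 ± 0.14 and 0.31 ± 0.08, and the list's medians were 0.07 and 0.10. None of 7 cadherin repressors of the Snail, Zeb and Twist families was called at either exposure. Of the 8 other cadherin superfamily genes tested, 5 rose at E9.75+12h, led by Clstn2 (calsyntenin 2, 1.50 ± 0.15) and Cdhr1 (1.33 ± 0.20), and 3 rose at E9.25+24h. Of 13 core planar cell polarity genes 4 and 3 rose, with Ptk7 (0.63 ± 0.14 and 0.38 ± 0.06) and Vangl1 (0.50 ± 0.12 and 0.52 ± 0.11) among them at both.

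Of the hair bundle link partners, 3 of 8 tested rose at E9.75+12h, and 2 of 7 rose and 1 fell at E9.25+24h. Myo7a, the motor of the tip link complex, rose by 0.82 ± 0.12 and 0.64 ± 0.08 and Adgrv1 by 0.45 ± 0.11 and 0.44 ± 0.10, and Whrn was the one that fell (-0.46 ± 0.13). Of 12 regulators of clustered protocadherins (cohesin, CTCF and chromatin factors) 6 fell in the 12-hour exposure, 4 fell in the earlier 24-hour exposure and none rose. Smc3 changed by -0.61 ± 0.12 and -0.26 ± 0.05 and Smc1a by -0.55 ± 0.10 and -0.26 ± 0.05. For reference, 12 of 14 FGF readout genes fell at each early exposure, and 0 and 1 of them rose. No gene of any of these lists was called at E10.25+24h, where 0% of all genes tested were called.

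Markers of other cells were read in the same fits. At E9.75+12h 4 otic epithelium markers rose and 1 fell, and at E9.25+24h 2 rose and 4 fell. Mesenchyme markers gave 2 higher of 11 tested at E9.75+12h (Lum and Dcn), with sums of 126.5 to 388.8 CPM in con and 258.9 to 416.6 in R2b, and 0 calls at E9.25+24h. Endothelium markers gave 1 lower of 10 (Tek) and 0 of 11, and blood markers gave no call of 9 at either exposure. Of 5 surface ectoderm markers tested, 2 rose at each exposure, Dsp (desmoplakin) at both, with sums of 377 to 415.9 CPM in con and 431.3 to 448.7 in R2b at E9.75+12h. Those sums were mostly Dsp and Esrp1, which went opposite ways. Mean CPM in con and R2b was 113.4 and 191.3 for Dsp and 266 and 224.1 for Esrp1. Trp63 was also lower in R2b, at 0.643 against 0.939 CPM. At each early exposure 3 of the 5 tested had a fold change above 0. Neuroblast markers gave no call at E9.25+24h, and hindbrain markers none of 4 and none of 3 tested. The part of these markers in the rise of the members was not tested.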

How the data were processed

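The authors deposited unnormalized counts of reads for 15736 genes. The submitters' processing notes name Novoalign 2.08.03 and build mm10; what each was used for, the counting tool and the annotation are not given in the sources used here. Columns were matched to samples by the library numbers in the titles: 22 of 24 samples had a column, and 2 columns that matched no sample were not used, which leaves 3 litters at E9.75+12h. Symbols, positions and exon lengths came from GENCODE M21 (GRCm38), and promoter sequences from RefSeq.

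Counts were tested in edgeR 4.0.16 (R 4.3.3) with filterByExpr, TMM factors, estimateDisp, glmQLFit and glmQLFTest, each exposure alone. The difference of effects was a contrast of 6 group means over 22 libraries. p-values were adjusted by Benjamini-Hochberg over all genes tested, with calls under 0.05. SEs were derived from the F statistic. Within-litter differences used log2(CPM + 0.1). The scripts were tested on simulated data.

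Members and lists were chosen with earlier results of these data known. Members were named if called at E9.75+12h or E9.25+24h, with a set of landmark genes whatever their result; of each companion list, called genes with the smallest adjusted p were named, at most 3. Others are named in the text where a value called for it. The con and R2b pool of a litter were taken to come from 1 dam because they share a date or number in their titles. Same-litter correlations of deviations across genes were -0.166, -0.296 and -0.276 in the 12-hour exposure, so there the pairing rests on the labels alone. They were 0.479, 0.623, 0.819 and 0.806 in litters of E9.25+24h, and those of E10.25+24h gave -0.166, 0.392, 0.331 and 0.248. Alternatives were median-of-ratios size factors, other filters, the litter block, DESeq2 1.42.0, all libraries in 1 fit, and leaving out litters or pools. Leaving out litters 1 and 3 of E10.25+24h was added after seeing the data.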

Additional observations from a re-analysis of the deposited data

Results flagged for a closer look

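Values that stood far from the other 3 pools of their group came up in 12 of 116 groups of 4 pools examined (27 members, Fgfr2 and Ighg1). Chance would give about 1 in 20 for independent, normally distributed values. The groups share pools, so 1 odd pool can be flagged for several members and that rate is a rough guide only. Of the 12, 3 were in the con pool of litter 4 at E9.25+24h, which also had high endothelium, mesenchyme and neuroblast sums: Celsr3 at 16.4 CPM (others 2.48 to 3.34), Cdh5 at 52.6 CPM (others 0.212 to 8.19) and Cdh11 at 306 CPM (others 137 to 164). The R2b pool of that litter had the low Cdh1 value of 196 CPM (others 234 to 239). 2 were in the library labelled con of litter 1 at E10.25+24h, which held transgene reads: Pcdh20 at 126 CPM (others 32.7 to 43.1) and Cdh1 at 287 CPM (others 211 to 222). 2 were in the library labelled con of litter 3 at E10.25+24h, which held fewer transgene reads: Cdh3 at 380 CPM (others 451 to 459) and Cdh11 at 249 CPM (others 181 to 192). Celsr3 was at 16.8 CPM in the R2b pool of litter 4 at E10.25+24h (others 1.69 to 2.11), where the neuroblast sum was 668 CPM against 195.3 to 277.1. In litter 2 at E9.25+24h the R2b pool had Pcdh15 at 28.6 CPM (others 18.8 to 19.8) and Pcdh18 at 163 CPM (others 190 to 192), and the con pool had Cdh4 at 75.3 CPM (others 56.1 to 59.3).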

How the results depend on the processing

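Called members numbered 15 at E9.75+12h, 8 for E9.25+24h and 0 for E10.25+24h, in that order below. They stayed within 1.5 times of these under median-of-ratios factors, both other filters, DESeq2 and 1 fit of all libraries. Leaving out single litters or pools gave 4 to 19, 0 to 9 and 0 to 0 members, where 434 to 4583 and 322 to 2289 of all genes were called at the first 2 exposures, and the cause was not tested. With the litter block the counts were 10, 30 and 0. The block without litter 1, 2 or 3 gave 4, 13 and 9 at E9.75+12h (267, 3151 and 1595 of all genes), and 21, 22, 21 and 34 for litters 1 to 4 at E9.25+24h (4715, 4450, 4602 and 6161 of all genes), with 9 without litter 1 and 9 without litters 1 and 3 at E10.25+24h. For the difference between the 2 early effects, leaving out litters or pools gave 0 to 1 calls, and the block without litter 2 of E9.75+12h gave 2. The Cdh5 log2 fold change at E9.75+12h was -0.35 and changed sign to 1.44 in the block without litter 3, where it was called higher (adjusted p = 0.0187). That fit held litters 1 and 2 alone. Of single-gene values under alternatives, 90 of 466 lost and 12 gained a call at E9.75+12h, 40 and 66 of 570 did at E9.25+24h, and 15 of 624 gained one at E10.25+24h. An uncalled value changed sign in 18, 12 and 68 cases. Depth limits Cdh23, Cdh13 and the low Pcdhb genes, at about 1 CPM or less.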
